A study of Mus musculus with 2 samples.

Results

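A cassette exon is an internal exon that a cell can splice into its messenger RNA or leave out whole, joining the exon before it directly to the exon after it. In central nervous system tissue of mouse embryos, 6082 cassette exons of 28 to 300 nucleotides were found among 178269 annotated internal exons of that length. They were selected on splice junction reads: the deposited mm9 junction table had to hold at least 20 reads across the skipping junction and at least 20 reads, summed, across the inclusion junctions on either side. Inclusion was the mean of both inclusion junctions divided by that mean plus the skipping reads. It estimates the percent of molecules that keep the exon among those spliced at the same flanking exon ends. Because these reads chose the exons, the level of inclusion is given below as a description and carries no test. The exons lay in 3914 genes, of which 2557 had 1, 858 had 2 and 499 had 3 or more.

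The tissue came from C57BL/6J embryos at embryonic day 14, with no treatment or mutation named, and each sample was a pool of male and female littermates. There was 1 group with 2 biological replicates, which are separate biosamples that share a donor identifier, so spreads below are those of 2 pools. Poly(A)+ RNA of over 200 nucleotides, depleted of ribosomal RNA, was sequenced as stranded paired-end libraries. The junction table gave reads in 2 fields, 52713700 and 71600793 in all, which no label ties to a numbered replicate, so they are called field 1 and field 2. The mm10 tables, used as a second readout, are numbered by replicate and held 102727538 and 138440954 expected counts.

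Markers of neurons (5 of 5 genes at 1 TPM or more, the deposited unit of transcript abundance) and of radial glia (5 of 5) were present in both replicates, with summed levels of 3613 and 3926 TPM and of 1892 and 2134 TPM. Markers of tissue around the nervous system differed between replicates. Skeletal muscle genes summed to 350 TPM in replicate 1 and 7.94 TPM in replicate 2 (5 and 2 of 5 at 1 TPM), with Ckm at 16.4 and 0.06 TPM. Cartilage and bone genes summed to 716 and 87.6 TPM (5 and 4 of 5), with Col10a1 at 19.5 and 0.04 TPM, skin and epithelial genes to 116 and 15.1 TPM, and red blood cell genes to 7353 and 3740 TPM. In bulk tissue, fewer cells of a type and less RNA per cell cannot be told apart.

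Splicing of a cassette exon is set by its splice sites and by proteins that bind in or near it, among them the PTB, NOVA, RBFOX, MBNL, SR and hnRNP families, and developing neurons are known for switching many such exons. An exon whose length is a multiple of 3 adds or removes amino acids and keeps the reading frame, whereas any other length shifts it. A cassette exon that brings a premature stop codon, often called a poison exon, marks the messenger RNA for nonsense-mediated decay, by which cells destroy faulty transcripts and by which many splicing factors limit their own level.

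The exons below carry the results that follow, and were chosen after their values were seen. They were cut from GENCODE M21 transcripts on mm10, and each is written 5′ to 3′ in the sense of its messenger RNA. In the first set, coding exons that keep or shift the frame, capitals mark the last 3 bases, the exonic end of the 5′ splice site.
Clta exon of 54 nucleotides, chr4:44030215-44030268, plus strand: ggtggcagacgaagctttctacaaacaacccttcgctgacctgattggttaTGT
Cltb exon of 54 nucleotides, chr13:54597026-54597079, minus strand: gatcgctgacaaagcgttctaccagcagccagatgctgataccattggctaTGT
Clta exon of 36 nucleotides, chr4:44031400-44031435, plus strand: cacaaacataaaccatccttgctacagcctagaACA
Sptan1 exon of 60 nucleotides, chr2:30001100-30001159, plus strand: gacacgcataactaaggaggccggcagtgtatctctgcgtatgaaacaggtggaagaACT
Hnrnpd exon of 57 nucleotides, chr5:99976534-99976590, minus strand: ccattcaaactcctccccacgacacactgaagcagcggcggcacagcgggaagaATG
Ptbp1 exon of 34 nucleotides, chr10:79862014-79862047, plus strand: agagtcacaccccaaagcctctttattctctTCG
Ptbp2 exon of 34 nucleotides, chr3:119724612-119724645, minus strand: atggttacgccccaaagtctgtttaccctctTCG
Col2a1 exon of 204 nucleotides, chr15:98000403-98000606, minus strand: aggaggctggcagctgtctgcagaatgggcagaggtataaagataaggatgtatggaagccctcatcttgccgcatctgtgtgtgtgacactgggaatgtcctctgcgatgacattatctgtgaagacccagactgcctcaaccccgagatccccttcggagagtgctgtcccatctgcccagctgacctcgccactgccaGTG

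The clathrin light chain exons of Clta and Cltb, of equal length, were identical at 37 of 54 positions (68.5%), and both ended in TGT. The exons of Ptbp1 and Ptbp2 were identical at 26 of 34 positions (76.5%), and both ended in TCG. In the second set, from the splicing factor Rbm39 and the histone methyltransferase Ezh2, the exon holds the stop codon of an annotated transcript subject to nonsense-mediated decay, and capitals mark that codon.
Rbm39 exon of 51 nucleotides, chr2:156152463-156152513, minus strand, stop codon at base 39: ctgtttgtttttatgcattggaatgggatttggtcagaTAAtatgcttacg
Rbm39 exon of 72 nucleotides, chr2:156174097-156174168, minus strand, stop codon at base 41: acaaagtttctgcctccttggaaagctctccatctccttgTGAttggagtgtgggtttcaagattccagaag
Ezh2 exon of 82 nucleotides, chr6:47546749-47546830, minus strand, stop codon at base 19: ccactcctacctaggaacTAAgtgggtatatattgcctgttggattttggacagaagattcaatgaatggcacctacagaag
Over the 5697 members whose sequence was read, the last base was G in 78.3%, against 80.4% of 103468 exons of the same length range without a skipping read. The hexamer GAAGAA, a purine-rich enhancer motif searched on the transcript strand with overlapping matches counted, occurred 10.3 times per 10000 hexamer positions in members and 14.1 times in exons without a skipping read. TGCATG, the RBFOX motif, occurred 3.05 and 2.60 times inside the exons. The introns beside an exon, where RBFOX proteins often bind, were not analysed here.

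Most cassette exons were kept in most molecules. The median inclusion was 79.2% in field 1 and 79.1% in field 2, and the quartiles of the mean were 35% and 94.1%. In all, 2151 exons (35.4%) were included at 90% or more, 680 (11.2%) at under 10%, and 3251 (53.5%) in between. A typical exon had 76 skipping and 677 inclusion reads (medians), and the skipping reads ran from 20 to 79611. The members were shorter than exons never seen skipped, with a median length of 102 against 123 nucleotides. Their flanking introns were longer, with medians of 1690 nucleotides on either side against 1216 upstream and 1126 downstream. Longer introns were not particular to the members. The 25931 exons with some skipping reads but too few to meet the rule had medians of 1869 upstream and 1683 downstream. The 325 cassette exons of 27 nucleotides or less had a median inclusion of 47.9%, and the 236 of over 300 nucleotides one of 80.4%.

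Near the limits of the rule, the 147 members with exactly 20 skipping reads and the 178 exons left out at 19 both had a median inclusion of 96.3%. The 30 members with exactly 20 inclusion reads stood at 3.29% and the 37 exons left out at 19 at 4.03%. The 7 members of 28 nucleotides stood at 63.2% and the 65 cassette exons of 27 nucleotides at 51.4%. At 300 and 301 nucleotides there was none, and the longest members, in Trim46 and Fam126a, had 298. The median thus depends on the least number of reads asked for, and was 88.4% with at least 10 of each kind and 61.3% with at least 50.

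Annotated role separated the inclusion levels. Of the members, 4033 (66.3%) were coding in a protein-coding transcript and had a median inclusion of 88.5%. The 389 that hold a start or stop codon stood at 69%, and the 535 untranslated in protein-coding transcripts at 35.1%. The 362 found only in non-coding transcripts stood at 23.2%, and the 378 found only in transcripts of nonsense-mediated decay at 15.9%. The 385 with no matching mm10 exon stood at 44.7%. The coding exons therefore fill the right of the distribution, while the left end is mixed.

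**Figure D1:**
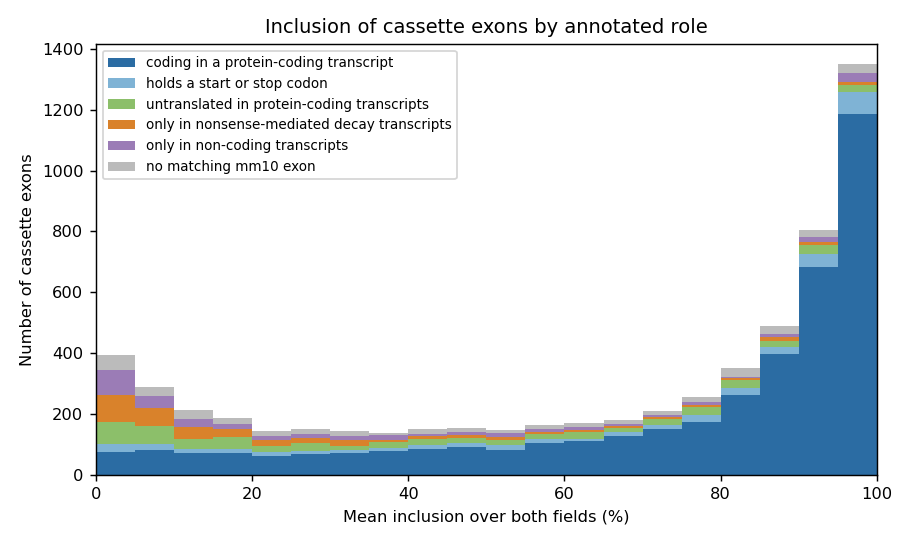
Number of cassette exons (vertical axis) by mean inclusion over both fields in steps of 5 points (horizontal axis, percent), stacked by the role of the exon in the mm10 annotation. The 4033 coding exons crowd at high inclusion, and the 378 exons of nonsense-mediated decay transcripts lie mostly at the low end.

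Exon length in coding exons followed inclusion. Among coding members, a length divisible by 3 was found in 82.8% of those included at under 10%, 83.4% at 10 to 25%, 74.5% at 25 to 50%, 60.6% at 50 to 75%, 43.8% at 75 to 90% and 35.1% at 90% or more. In 97500 coding exons of the same lengths with no skipping read it was 40.3%. Over all members, whatever their role, it was 45.2% (2747 exons), against 39.9% without a skipping read and 86.2% of the shorter cassette exons. In the same classes of inclusion, all members stood at 45.7%, 56.8%, 58.2%, 54.1%, 42.8% and 35.1%. The high share at under 10% was thus not seen over all members, where 157 of 680 in that class were coding. Coding was read from the annotation, and the part of the annotation in this trend was not tested. The 1964 coding members that keep the frame had a median inclusion of 77.9%, and 30.2% of them were included in under 50% of molecules. The 2069 that shift it stood at 92.4%, with 7.78% under 50%. With at least 500 reads the medians were 88.9% and 95.7%, in the same order. Inclusion from mm10 transcript levels was a second readout of the same libraries on the exons already selected, so it is not independent support. For 1051 of the 1964 frame-keeping exons it gave medians of 58.7% and 58% in replicates 1 and 2. For 702 of the 2069 that shift the frame it gave 84.9% and 84.5%.

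**Figure D2:**
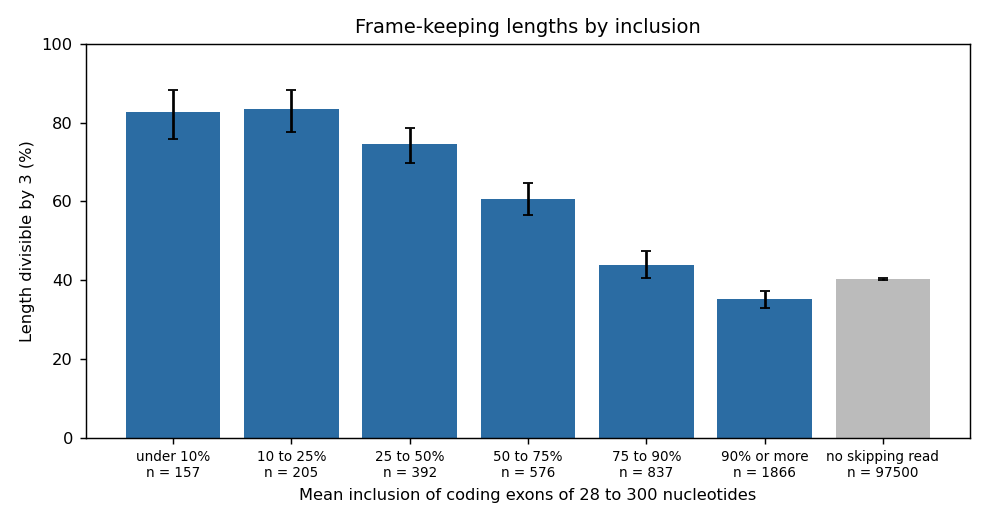
Percent of coding exons with a length divisible by 3 (vertical axis) in classes of mean inclusion (horizontal axis), with exact 95% binomial intervals. These intervals treat exons as independent, although some overlap or share a gene. The bars run from 82.8% at under 10% inclusion to 35.1% at 90% or more, with exons never seen skipped at 40.3% in grey.

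The stop codon of an annotated nonsense-mediated decay transcript lay in 402 members, not all of which act as poison exons. The 278 of these in no protein-coding transcript had a median inclusion of 11.9% in field 1 and 12% in field 2, and 120 of them were under 10%. The 105 that are coding in another transcript stood at 93.8% and 94.1%. Since decay removes the molecules that hold a premature stop, inclusion read from steady-state RNA counts only those that remain.

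Exons of splicing factors are given first. Rbm39, a factor that works with the core splicing protein U2AF, had 5 members, all in decay transcripts. Its 51-nucleotide exon (printed above) was included at 0.867% and 1.96% in fields 1 and 2, and its 72-nucleotide exon at 9.40% and 10.2%, while a 73-nucleotide exon reached 34.9% and 28.3%. These Rbm39 exons thus ranged from nearly absent to a substantial share within 1 gene. Srsf6, an SR protein that promotes exon use, carried a 268-nucleotide decay exon at 24.5% and 22.8%. Srsf2, another SR protein, carried a 104-nucleotide untranslated exon at 4.24% and 3.76%. The 105-nucleotide exon of Hnrnpdl, which belongs to decay transcripts of this hnRNP gene, stood at 31.5% and 31.2%, the fields differing by less than 1 point. In Tra2b, whose protein binds purine-rich enhancers, the exon of 276 nucleotides with a premature stop was at 78.6% and 77.0% in its own triplet of exons, on 55 and 93 skipping reads. Its inclusion junctions were uneven, with 804 reads upstream and 224 downstream.

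Some other members in RNA-binding protein genes are coding, among them the exons of Ptbp1 and Ptbp2 given here. The list of RNA-binding proteins and splicing factors had 89 members (48 coding) in 41 of 59 genes. Of the 89, 12 hold the stop codon of an annotated decay transcript. The median inclusion of the 89 was 75.7%, close to the 79.2% of all members. Whatever their role, 42 (47.2%) had a frame-keeping length. Ptbp2, the PTB protein of young neurons, included its 34-nucleotide exon at 92.8% (95% interval 91.4 to 94) and 95.2% (94.4 to 96). Skipping of that exon shifts the frame and is known to lead to decay in cells with much Ptbp1. The paralogous exon of Ptbp1 stood at 95.5% and 97.4%, on 35 and 26 skipping reads. The 78-nucleotide exon of Ptbp1, which lies between its RNA-binding domains and keeps the frame, was lower, at 39.3% and 34.2%.

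Hnrnpd, which encodes the AU-rich element binding protein AUF1, has a pair of exons whose combinations give its protein forms. The 57-nucleotide exon was included at 71.2% and 71.1%, and the 147-nucleotide exon at 60.4% and 59.7%. Both repeated to within 1 point between fields, on 1228 to 2406 skipping reads. Transcript TPM in replicates 1 and 2 was lower for the 57-nucleotide exon, at 46.4% and 50.1%. For the 147-nucleotide exon it was close, at 58.4% and 58.9%. Hnrnpa2b1, an hnRNP of RNA transport, kept its 120-nucleotide exon at 92.6% and 91.4%. In Srsf7 a 36-nucleotide exon stood at 78.3% and 78%, in Nova1, a regulator of neuronal exons, a 72-nucleotide exon stood at 77.1% and 79.1%, and in the neuronal factor Celf2 a 144-nucleotide exon stood at 74.4% and 77.9%. The 54-nucleotide exon of Mbnl2 differed more, at 49.8% and 67.6%, with 101 and 54 skipping reads.

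The cytoskeleton list held 82 members (61 coding) in 33 of 46 genes, at a median inclusion of 49.1%. Of the 82, whatever their role, 66 (80.5%) had a length divisible by 3, against 45.2% of all members. Several members of this list were skipped almost wholly at this age. Dbn1 encodes drebrin, an actin-binding protein of dendritic spines, and its 138-nucleotide exon, which makes the adult form drebrin A, was included at 0.807% and 0.804% beside 8171 and 12463 skipping reads. Mapt encodes tau, and its 93-nucleotide exon, known as tau exon 10 and encoding a microtubule-binding repeat, stood at 2.72% and 3.69%. The 87-nucleotide exon of Mapt stood at 0.288% and 0.0696%, and the 66-nucleotide exon at 99.6% and 99.2%, so 1 gene held exons at both ends of the scale. Of the other skipped exons, a 63-nucleotide one in the spectrin gene Sptan1 stood at 2.30% and 1.08%.

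Other cytoskeletal exons were skipped in part. The 60-nucleotide exon of Sptan1, whose protein lines the membrane, was included at 50.9% and 48.5%. Abi1, a subunit of the WAVE actin-nucleation complex, held an 87-nucleotide exon at 55.8% and 53.9%. Ank2, an ankyrin that ties membrane proteins to spectrin, held a 183-nucleotide exon at 51.6% and 55.7%. Evl, an actin regulator of the Ena/VASP family, had a 63-nucleotide exon at 17.1% and 16.0% with 2579 and 4231 skipping reads, while transcript TPM gave 0.623% and 2.06% in the numbered replicates. By junctions, all 4 differed by under 5 points between fields.

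Among adhesion and axon guidance genes, 70 members (53 coding) lay in 33 of 42 genes. Whatever their role, 57 (81.4%) had a length divisible by 3, and 52 (74.3%) were included at 10 to 90%. Cadm1, a synaptic immunoglobulin adhesion protein, held exons of 84 nucleotides at 45.0% and 47.1% and of 54 nucleotides at 20.1% and 14.9%. Neo1, a netrin receptor, held a 159-nucleotide exon at 56.7% and 56.0%. Robo2, a receptor for Slit guidance cues, held a 273-nucleotide exon at 40.7% and 42.4%, and Ctnnd2, a catenin of neuronal junctions, a 75-nucleotide exon at 28% and 28.1%. The amyloid precursor gene App kept its 54-nucleotide exon, whose loss marks forms made outside neurons, at 94.8% and 97.6%. In its relative Aplp2, the 168-nucleotide exon stood at 44.9% and 51.2%. Of the 70, 1 (1.43%) differed by 10 points or more between fields, beside 8.75% of all members and 9.03% of cassette exons of all lengths.

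The list of vesicle traffic, endocytosis and synapse genes held 81 members (64 coding) in 30 of 39 genes, at a median inclusion of 63.2%. Whatever their role, 57 (70.4%) had a frame-keeping length. Clathrin light chains, which stud the coat of endocytic vesicles, have exons known to be used in neurons. The 54-nucleotide exon of Clta was included at 56.0% and 62.5% and its 36-nucleotide exon at 3.78% and 4.25%. Skipping reads of the 36-nucleotide exon are also the downstream inclusion reads of the 54-nucleotide exon. With all junctions counted, the 36-nucleotide exon read 2.51% and 3.05%. In Cltb the 54-nucleotide exon stood at 50.8% and 49.3%, near that of Clta. Epn1, an endocytic adaptor, held a 75-nucleotide exon at 34.7% and 33.3%, and the clathrin assembly gene Picalm a 150-nucleotide exon at 75% and 78.3%. Gphn, the scaffold of inhibitory synapses, held a 108-nucleotide exon at 20.3% and 20.4%. Dlg4, the scaffold PSD-95 of excitatory synapses, kept its 110-nucleotide exon, whose skipping shifts the frame, at 82.7% and 83.8%. Numb, a regulator of progenitor fate, held exons of 147 nucleotides at 32.9% and 41.9% and of 33 nucleotides at 36.3% and 15.8%, the latter on 93 and 179 skipping reads.

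Genes of channels and receptors held 32 members in 20 of 29 genes, with a median inclusion of 45.5%. Grin1 encodes the obligatory NMDA receptor subunit, and its 63-nucleotide N1 cassette was included at 18.9% and 11.2%. Its 111-nucleotide C1 cassette stood at 38.2% and 52.6%, and at 28.8% and 37.7% when all junctions across the exon were counted. Gabbr1, the GABA-B receptor subunit, kept a 151-nucleotide exon at 87.8% and 93.5%. Gria2, the AMPA receptor subunit, has the flip and flop exons, a pair of 115 nucleotides which are used in place of each other. They read 98.9% and 98.7% and 98.2% and 97.1% against skipping of both alone, and when all junctions across each exon were counted they read 75.1% and 81.2% and 78.4% and 78.2%. For such mutually exclusive pairs the skipping junction misses the molecules that hold the partner, and the values from all junctions add to more than the whole, so neither reading is the share of molecules. Pkm, the pyruvate kinase of glycolysis, has the same arrangement, and its pair of 167-nucleotide exons read 99.3% and 99.5% and 99.2% and 99.5%.

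Kinases and small GTPase regulators held 56 members in 28 of 35 genes, at a median of 66.1%. Map4k4, a kinase of cell motility, held a 192-nucleotide exon at 72.8% and 69.5%, and Camk2b, a calcium-dependent kinase of synapses, held exons of 45 nucleotides at 46.0% and 46.3% and of 129 nucleotides at 2.80% and 1.80%. Transcription and chromatin genes held 72 members in 30 of 36 genes, at a median of 82.2%. Kdm1a, a histone demethylase, held a 60-nucleotide exon at 45.5% and 48.1%. Smarcc2, a chromatin remodeller subunit, held a 93-nucleotide exon at 57.1% and 50.3%. The 42-nucleotide exon of Pax6, known as exon 5a and inserted in its paired domain, stood at 19.7% and 22.2%. The 113-nucleotide exon of Pbx3, a homeodomain factor, stood at 57.1% and 58.2%. Ezh2 held a coding exon of 126 nucleotides at 64.1% and 58.3%, and its 82-nucleotide stop-carrying exon (printed above) at 9.72% and 6.81%.

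Some members with the most reads of their list were kept almost always, whereas others, such as the 138-nucleotide exon of Dbn1, the 87-nucleotide exon of Mapt and the 36-nucleotide exon of Clta, were mostly skipped. Rac1, a small GTPase of the actin skeleton, kept its 63-nucleotide exon at 99.7% in both fields, on 10 and 15 skipping reads. Ptprs, a receptor phosphatase that guides axons, kept its 155-nucleotide exon at 99.7% and 99.8%, on 12 skipping reads in each. Gnas, the stimulatory G protein gene, kept its 45-nucleotide exon, which separates the long and short forms of the protein, at 98.9% and 99.2%. In Gnas the skipping reads were more, at 151 and 122. Agrn, the organiser of the nerve-muscle synapse, kept a 97-nucleotide exon at 99.5% and 99.6%. The 25931 exons with at least 20 inclusion reads and some skipping reads, but too few to meet the rule, had a median inclusion of 99.6%.

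**Figure D3:**
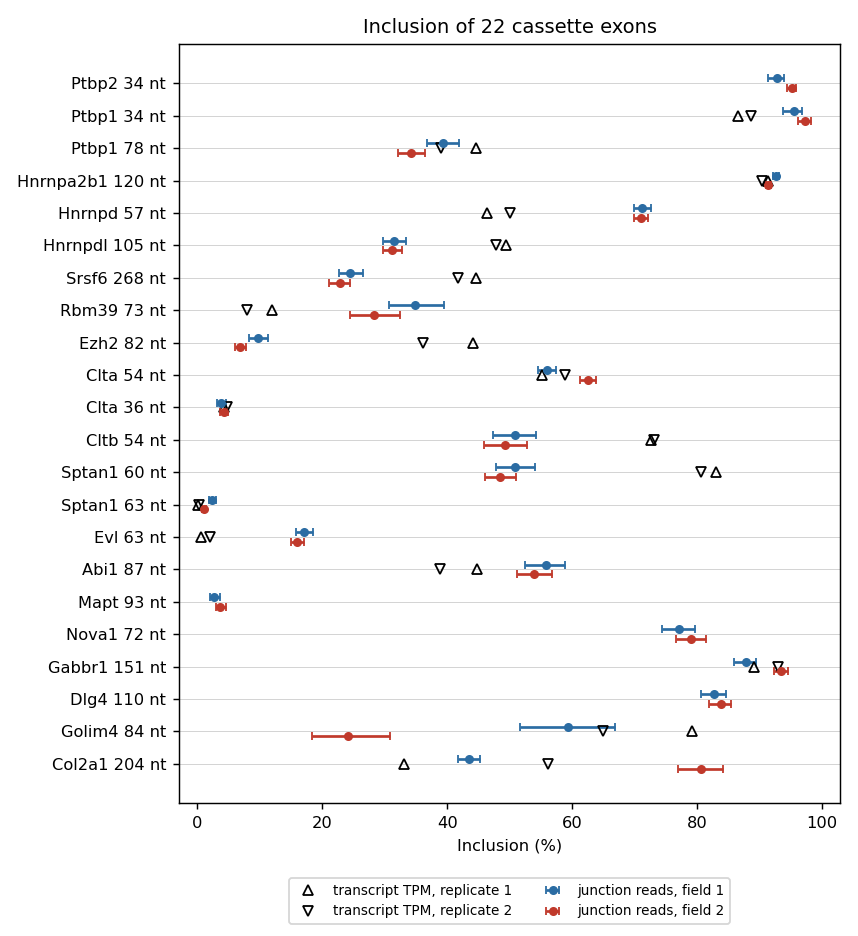
Inclusion in percent (horizontal axis) of 22 cassette exons chosen after their values were seen, named by gene and length. Filled points are junction reads in field 1 (blue) and field 2 (red) with exact 95% intervals of counting error, and open triangles are transcript TPM in the 2 numbered replicates where they could be had. Fields lie close together for most exons and far apart for Golim4 and Col2a1. Triangles stand apart from points for several exons, among them those of Ezh2, Cltb, Hnrnpd, Hnrnpdl, Evl and Golim4 and the 60-nucleotide exon of Sptan1.

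Inclusion repeated closely between fields. Across exons, the correlation of field 1 with field 2 was 0.982 (Pearson) and 0.977 (Spearman) over 6082 points that come from the same pair of libraries and are not independent. The median difference was 2.09 points, and 4567 exons (75.1%) differed by under 5. A difference of 10 points or more was found in 532 members (8.75%), beside 9.03% of 6643 cassette exons of all lengths. Of the 532, 298 were higher in field 1 and 234 in field 2, and in 131 the exact 95% intervals did not overlap. With at least 100 reads in each field, 175 of 4824 members (3.63%) differed by 10 points, beside 3.81% of cassette exons of all lengths. Members make up most of that background, so the likeness of these shares is no separate result. Outside the members, 10 points were reached by 49 of 325 shorter cassette exons (15.1%), 19 of 236 longer ones (8.05%) and 1031 of the 25931 exons skipped too rarely to enter (3.98%). By list, at all depths, 14 of 81 members (17.3%) of the vesicle and synapse list and 6 of 32 (18.8%) of the channel list differed by 10 points, against 2 of 72 (2.78%) of the transcription and chromatin list. With 100 reads in each field these were 9 of 65, of which 8 were higher in field 2, 3 of 22, and 0 of 59.

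The members of muscle, cartilage and connective tissue genes were less alike between fields. This list had 25 members in 11 of 24 genes, of which 14 (56%) differed by 10 points or more, at a median difference of 13.5 points, against 8.75% and 2.09 points over all members and 9.03% over all cassette exons. With at least 100 reads in each field it was 6 of 17, 5 of them higher in field 2, beside 3.63% of all members and 3.81% of all cassette exons at that depth. Col2a1 encodes the collagen of cartilage, and its second exon of 204 nucleotides (printed above) encodes a domain kept by precursor cells and lost in mature cartilage cells. It was included at 43.5% (95% interval 41.8 to 45.2) in field 1, with 1880 skipping reads, and at 80.7% (77 to 84.2) in field 2, with 93. From transcript TPM it was at 33.1% in replicate 1 and 56.1% in replicate 2. A 207-nucleotide form of this exon, which shares its upstream junction, read 34.8% and 76.5%. Its values rest mostly on that shared junction, since its own downstream junction had 37 and 6 reads. Both forms are counted in the shares above, so they are not separate cases.

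In Col11a1, which is made with Col2a1 in cartilage, a 255-nucleotide exon stood at 56.1% and 91.7%, with 270 and 12 skipping reads. Neb encodes nebulin, the ruler of muscle thin filaments, and its 111-nucleotide exon stood at 55.8% and 8.57%, with 19 and 32 skipping reads. Neither field reached 100 reads for this Neb exon, so its values are less sure than those of the collagen exons. Fibronectin, encoded by Fn1, has a pair of extra domains, of which the 270-nucleotide exon stood at 65.2% and 66.1% and the 273-nucleotide exon at 85.7% and 73.5%. These genes also differed in level between the numbered replicates. Col2a1 was at 417 and 73.5 TPM and Col11a1 at 83.3 and 19.5 TPM. Fn1 stood at 214 and 96.2 TPM and Neb at 9.33 and 3.77 TPM. All were lower in replicate 2, as were the summed cartilage and muscle markers given above, and Col2a1 is itself among those markers. The part of these markers in the differences of inclusion was not tested. Outside this list, Golim4, a Golgi membrane protein, held an 84-nucleotide exon at 59.4% and 24.1% by junctions and at 79.2% and 65% by transcript TPM in replicates 1 and 2. Fat1, a giant cadherin, held a 60-nucleotide exon at 43.0% and 80.6% with 145 and 35 skipping reads. The inclusion junctions of this Fat1 exon were uneven, with 54 reads upstream and 455 downstream. The exons of Golim4, Fat1, Col2a1 and Col11a1 were the 5 largest differences among members with at least 100 reads in each field. Both forms of the Col2a1 exon, which share reads, are among the 5.

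**Figure D4:**
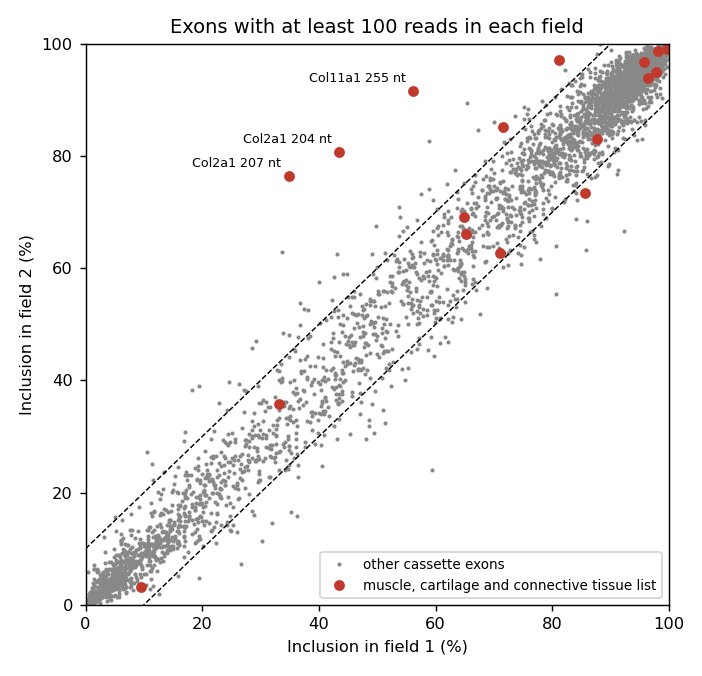
Inclusion in field 2 (vertical axis, percent) against field 1 (horizontal axis, percent) for the 4824 cassette exons with at least 100 reads in each field, with dashed lines 10 points from equality. Exons of the muscle, cartilage and connective tissue list are red, and the Col2a1 exons and the 255-nucleotide exon of Col11a1 lie far above the diagonal.

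A second readout came from transcript levels. For 2949 members (48.5%), mm10 transcripts both with and without the exon were annotated, and inclusion was the TPM of the former over the sum of both. Its median was 47.7% in both replicates, where junction reads gave 53% for the same exons. The Spearman correlation with junction inclusion was 0.794 across these exons, which share libraries. The readouts lay within 10 points for 1653 (56.1%) and at least 30 points apart for 466 (15.8%), while the replicates differed by 10 points or more in 166 (5.63%). For the 54-nucleotide exon of Clta, TPM gave 55.2% and 58.9%, close to the junctions. For the 82-nucleotide exon of Ezh2 it gave 44.2% and 36.2%, and for the 60-nucleotide exon of Sptan1 83.1% and 80.6%, both well above the junctions.

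**Figure D5:**
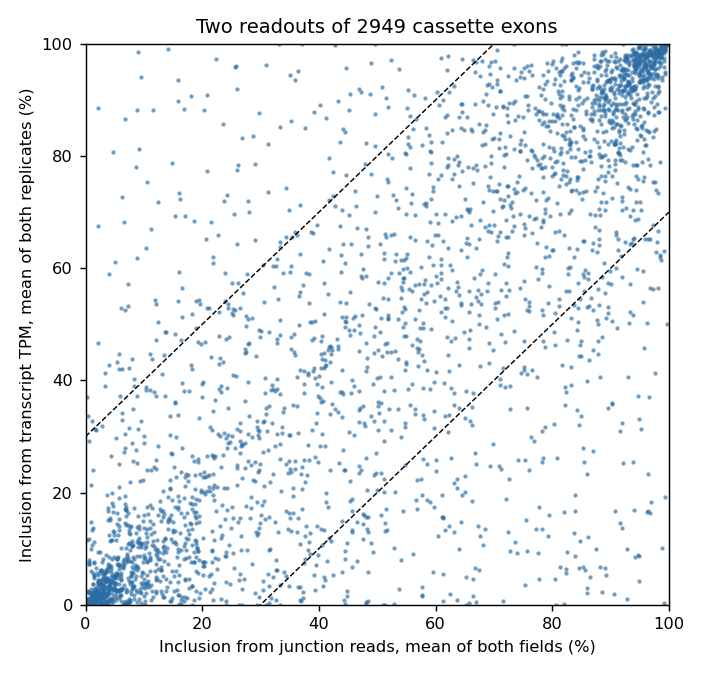
Inclusion from transcript TPM (vertical axis, mean of both replicates, percent) against inclusion from junction reads (horizontal axis, mean of both fields, percent) for 2949 cassette exons, with dashed lines 30 points from equality. Points gather at both ends of the diagonal, and 466 lie on or beyond the dashed lines.

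The deposited RPKM of each exon (read density per exon length and library size), divided by the mean of its flanking exons, had a median of 7.19% for 674 members included at under 10%, 31.4% for 1272 at 10 to 50%, 93.2% for 1961 at 50 to 90% and 100% for 2146 at 90% or more. It ordered the classes as the junctions did. For 1223 members (20.2%) the exon's RPKM equalled that of both neighbours exactly in field 1. The 93-nucleotide exon of Mapt, at 2.72% by junctions in field 1, read 99.5% in this ratio.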

How the data were processed

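Poly(A)+ RNA-seq of 2 samples, 1 group, was analysed from the deposited tables. Names of the aligner, quantifier and junction caller were not given in the sources used here. Of the files on mm9, the deposited junction table gives whole read counts in 2 fields, and the deposited exon table gives RPKM in 2 fields with Ensembl exon and transcript identifiers. On mm10, the authors deposited expected counts per gene, which are estimates, and TPM per gene and transcript. TPM was used as deposited, and no count was rescaled.

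Internal exons of 28 to 300 nucleotides were paired with junctions by coordinate. Where an exon had several flanking pairs, the one with the most skipping reads was used. Of the members, 2391 (39.3%) overlap another annotated exon with other ends, so some share a junction and its reads, and 1161 had inclusion junctions over 3-fold apart. Strand is part of the junction key. Members were matched to GENCODE M21 transcripts on mm10 by transcript identifier and by equal exon and intron lengths (5697 matched), which gave roles and sequences. Intervals of inclusion are exact Clopper-Pearson 95% intervals and cover counting error only, since reads that carry no molecular identifiers may repeat 1 molecule. With 1 library for each field no p-value is given, and a difference of 10 points was counted.

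The members, 9 gene lists and 6 marker lists were chosen with earlier results of these data known. The rule for named exons takes the 4 deepest and the highest and lowest of each list, the deepest of each textbook gene, the 10 with the most skipping reads, the 5 largest differences and the 3 closest to each limit. Other exons named were chosen after their values were seen. Some exons that meet this rule are left out of the text. The list of textbook exons had 67 members in 26 of 30 genes (median inclusion 79.7%). Alternatives changed read limits, junctions counted, overlapping exons and fields. Calculations used Python 3.11.15, numpy 2.4.6, pandas 2.3.3, scipy 1.17.1 and matplotlib 3.10.9. Inclusion was tested on simulated reads in which both inclusion junctions had the same expected number. Exons with uneven inclusion junctions were not simulated.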

Additional observations from a re-analysis of the deposited data

How the results depend on the processing

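The number of cassette exons, 6082, was 9122 with at least 10 reads of each kind, 3336 with at least 50, 3691 without exons that overlap another with other ends, and 3559 to 4331 from 1 field alone. Their median inclusion of 79.2% became 88.4% at 10 reads, 61.3% at 50, 85% with 20 reads at each inclusion junction, 79.4% with all junctions, 78.5% without overlapping exons, 62.2% to 68.8% from 1 field, and 87% at 100 reads in each field, a limit chosen after seeing the data, so it describes the read limit as much as the tissue. The percent of lengths divisible by 3, 45.2%, ran from 42.4% at 10 reads to 50.1% at 50, with 48.6% without overlapping exons and 47.9% to 49.6% from 1 field. The 532 exons with fields 10 points apart became 796 at 10 reads, 590 with all junctions, 404 with 20 reads at each inclusion junction, 282 at 50 reads, 328 without overlapping exons and 175 at 100 reads in each field. A single field cannot give that count. The median inclusion from TPM, 47.8%, was 48.6% with protein-coding transcripts and 47.7% in each replicate alone. The median RPKM ratio, 88.7%, was 78% against the higher flanking exon and 89.2% to 89.5% from 1 field. Of 85 exons named by the rule, 75 moved by less than the SD of the fields when all junctions were counted, 10 moved more, and 3 by at least 10 points. The search for TGCATG in flanking introns was not run, since no genome sequence was used here. No paired analysis was possible because there is 1 group.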

Other observations

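Some genes held many cassette exons. Eif4g3, a scaffold of translation initiation, had 9 members, from 8.5% to 99.3% inclusion, and 4 of them overlapped no other annotated exon. Mllt10, a chromatin-associated gene, had 8, from 18.6% to 96.1%. The chromatin remodeller gene Pbrm1 had 7, from 26.5% to 73.6%, and Wnk1, a kinase that regulates ion transport, had 7, from 11% to 89.1%, each of which overlapped another exon. Cacna1g, a T-type calcium channel gene, had 6, from 46.1% to 97.6%, of which 5 overlapped none.

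The largest numbers of skipping reads lay in very abundant transcripts. The 63-nucleotide exon of Actb, found in a non-coding transcript of this actin gene, had 33963 and 45648 skipping reads and was included at 0.0530% and 0.0318%. Meg3, an imprinted long non-coding RNA, had 8 members, of which the 81-nucleotide exon had 20973 and 26047 skipping reads and was included at 37.6% and 29.1%. The 94-nucleotide exon of Meg3 stood at 25.7% and 29.0%. Nnat, an imprinted gene of young neurons, makes forms with and without its 81-nucleotide exon, which was included at 68.0% and 67.7% with 11285 and 18535 skipping reads. In Hnrnpab, an hnRNP gene, the 141-nucleotide exon stood at 21.7% and 19.9% by junctions and at 53.3% and 52.7% by transcript TPM. The translation factor gene Eif5a included an untranslated exon of 30 nucleotides at 0.115% and 0.198%.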
